A study of Mus musculus with 6 samples.

Results

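The 33 genes described here encode the receptors, synthesis enzymes, transporters and scaffold proteins of synapses that use GABA, the brain's main inhibitory transmitter, or mark the classes and fates of the interneurons that release it. They were chosen by gene symbol, neuropeptides left out, and all 33 were found among the 55471 genes of the deposited table. All 33 also carry an adjusted p, as do 18603 genes in all. The RNA came from hippocampus of wild-type mice 24 hours after cerebral ischemia and reperfusion, a stroke model with a passing stop of the brain's blood supply. Of the 6 samples, 3 came from mice given saline and 3 from mice given Visudyne, a preparation of the light-activated drug verteporfin that the series uses to destroy meningeal lymphatic vessels. All 6 samples share the ischemia, so no sample shows uninjured hippocampus, and the labels give no strain, age or sex. The values are the authors' comparison of these groups, and single libraries were not analysed here. Whether each sample is a separate animal is left unsaid by the labels, so the p-values reflect only differences among these 6 samples, which could be technical.

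GABA is made from glutamate by the enzymes encoded by Gad1 and Gad2, packed into vesicles by the transporter encoded by Slc32a1, and taken up again by neurons and astrocytes. It opens GABA-A receptors, chloride channels assembled from subunits of several families, and also acts through the slower GABA-B receptor, which works through G proteins. Hippocampal interneurons arise from the ganglionic eminences of the embryo. The medial eminence yields parvalbumin and somatostatin cells under Lhx6, Sox6 and Satb1, and the caudal eminence yields other classes that carry Prox1 or Sp8.

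The deposited columns leave the numerator of the fold change unstated. Values below are therefore positive or negative as deposited, and a positive value means more RNA in the numerator group. The deposited fold changes were shrunken toward 0, and for 29 of the 33 genes they lie within 0.02 of it. Fold changes below are unshrunken log2 values back-calculated from the table's p-value, error and shrunken fold change, each given with its standard error (SE). For a deposited value close to 0 the result depends on the inferred shape of the authors' prior. In bulk RNA, fewer cells of a type and less RNA per cell cannot be told apart.

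The genes leaned to the positive side, and Reln was the only member to pass the authors' threshold. Of 33 members 1 passed an adjusted p of 0.05, against a background of 0.328% of all tested genes, or 0.183% on the positive side alone. At an unadjusted p of 0.05 there were 8 members, set beside 6.81% of all tested genes. On the positive side were 6, Reln, Lamp5, Gabra3, Satb1, Erbb4 and Lhx6, where the background is 3.92%. On the negative side were 2, Prox1 and Gabra2, where the background is 2.89%. Positive values were found for 27 members (81.8%), compared with 50.5% of all tested genes. The members' median log2 fold change was 0.16 and that of all tested genes was 0.00. The members' median was 0.10 and 0.25 when the assumed prior was 20% narrower and 25% wider. Members were chosen with earlier results of these data known, and genes of shared cell types are not independent, so these shares are descriptions.

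**Figure D1:**
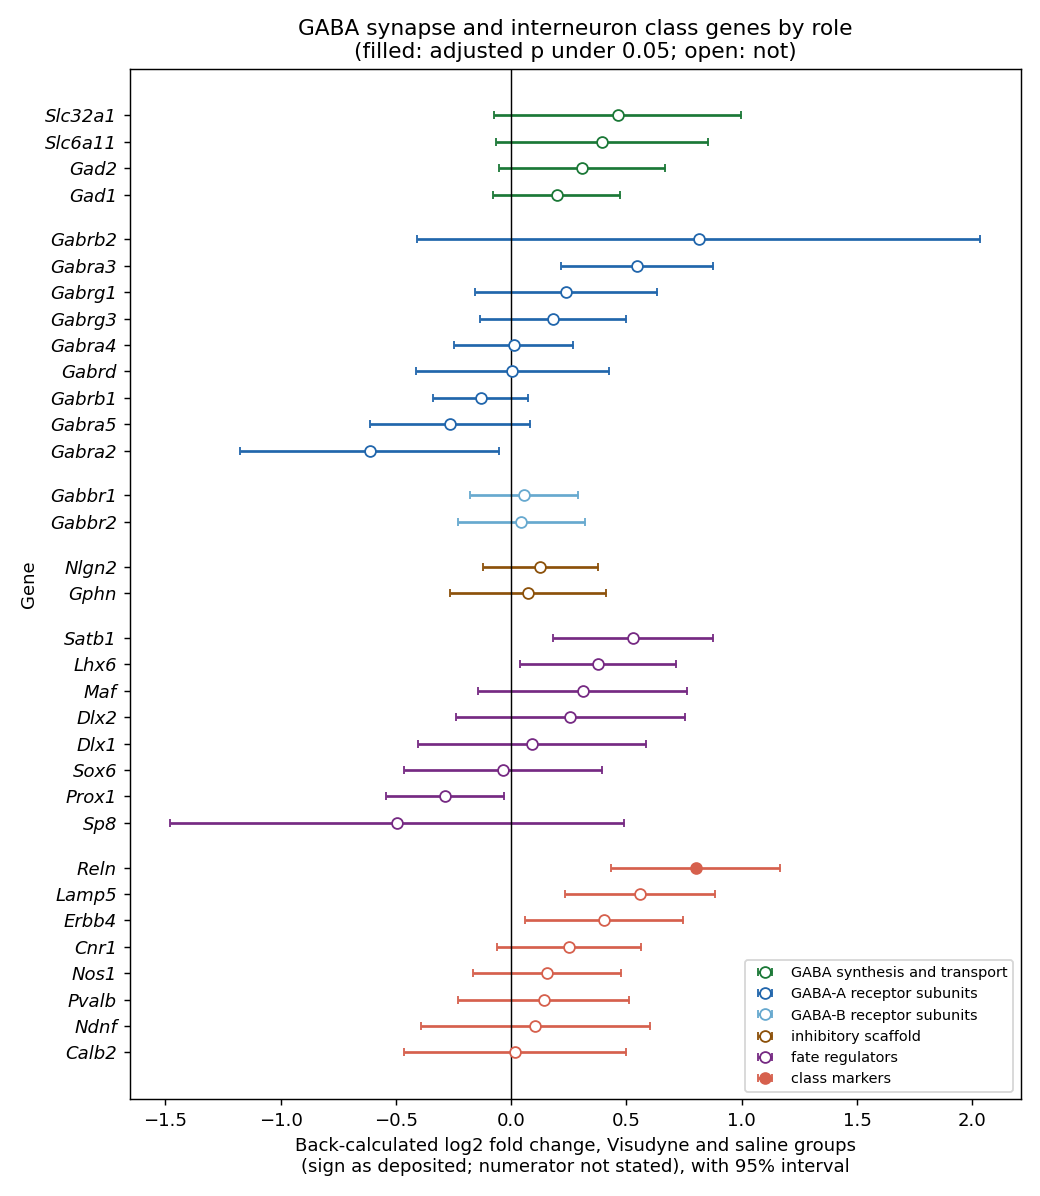
Back-calculated log2 fold change of each of the 33 genes (x axis, sign as deposited) with its 95% interval, grouped by role. The filled point, Reln at 0.80, is the member with an adjusted p under 0.05. All 4 genes of GABA synthesis and transport and all 8 class markers lie to the right of 0, while the GABA-A subunits spread from -0.61 for Gabra2 to 0.81 for Gabrb2.

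Reln (ENSMUSG00000042453) encodes reelin, a large secreted glycoprotein that guides neuronal positioning in development. In the adult brain Reln is expressed by cells that include interneurons and Cajal-Retzius cells. Its mean was 898 normalized counts and its log2 fold change 0.80 ± 0.19 (SE), a 1.74-fold difference with a 95% interval from 0.43 to 1.17 on the log2 scale. For Reln the authors' deposited table has adjusted p = 0.0159. The call was lost when all z values were divided by their SD over all tested genes, 1.09, which gave Reln an adjusted p of 0.0702 by Benjamini-Hochberg adjustment. Reln shares exon bases with a transcript on the other strand, Gm10475, in the GENCODE M21 annotation.

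The promoters of Reln and Gabra2 are shown because these genes, which lie on the same chromosome, had opposite signs, and RefSeq lists a single start site for each. The letters are the 250 bases before the start, 5′ to 3′ on the strand of the gene, from RefSeq in build GRCm38.p6, chr5:22344706-22344955 for Reln and chr5:71095850-71096099 for Gabra2, both on the minus strand. Capitals mark the GC box, GGGCGG or its reverse complement CCGCCC, searched on both strands with overlapping matches counted.
Reln: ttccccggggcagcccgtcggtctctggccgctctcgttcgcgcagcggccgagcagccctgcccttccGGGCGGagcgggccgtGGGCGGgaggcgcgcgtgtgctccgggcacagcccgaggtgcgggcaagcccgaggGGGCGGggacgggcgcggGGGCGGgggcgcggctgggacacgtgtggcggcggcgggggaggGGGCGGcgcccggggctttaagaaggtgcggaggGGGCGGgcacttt
Gabra2: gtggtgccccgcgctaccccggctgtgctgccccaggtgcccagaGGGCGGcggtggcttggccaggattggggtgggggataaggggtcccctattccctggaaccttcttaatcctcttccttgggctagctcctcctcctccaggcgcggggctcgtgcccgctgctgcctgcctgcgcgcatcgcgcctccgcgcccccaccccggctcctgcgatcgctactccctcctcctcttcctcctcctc
The Reln promoter holds 6 GC boxes and is 80.0% G and C, and that of Gabra2 holds 1 and is 70.0% G and C. Of 32851 RefSeq mouse promoters of this length, 32.7% hold at least 1 GC box and 0.886% hold 6 or more, and the median G and C content is 52.4%. RefSeq lists 51 promoters for 29 of the 33 members, of which 20 (39.2%) hold a GC box. A match of letters is a description and not a binding site.

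Levels were compared between genes per kilobase of exon, with exon lengths from GENCODE M21, since longer transcripts collect more reads. Gabbr1, a GABA-B subunit, was the most abundant member, with 2048 mean normalized counts per kb. Gabra5, the alpha subunit typical of hippocampal pyramidal cells, followed with 1882. Nlgn2, the neuroligin of inhibitory synapses, had 1107 per kb, Gabbr2 1030 and Gad1 898. Among class markers Pvalb, Cnr1, Calb2 and Lamp5 had 692, 573, 553 and 483 per kb. Reln, with 37.8 per kb over 23.7 kb of exon, was among the 4 lowest members, beside Ndnf with 32.4, Sox6 with 21.8 and Sp8 with 11.2. These are means over both groups, and without values of single libraries the spread behind this order is not known.

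**Figure D2:**
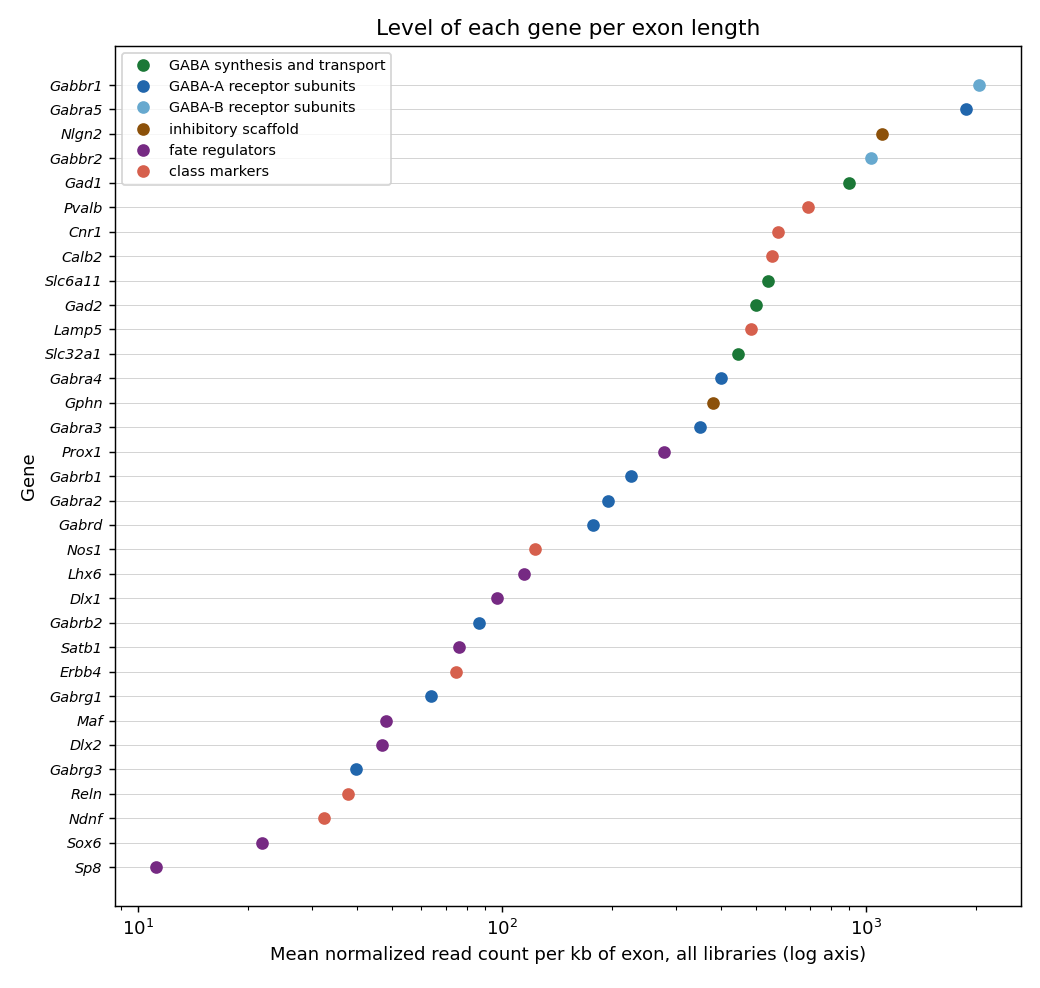
Mean normalized read count per kb of exon over all libraries (x axis, log scale) for each of the 33 genes (y axis), coloured by role. Levels run from 11.2 for Sp8 to 2048 for Gabbr1, with scaffold, synthesis and GABA-B genes in the upper part, GABA-A subunits spread from 39.6 to 1882, and most fate regulators in the lower part.

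All 4 genes of GABA synthesis and transport had positive values, and none passed the threshold. Slc32a1, the vesicular GABA transporter, had 0.46 ± 0.27 on the log2 scale, and Gad2, the synthesis enzyme concentrated at nerve terminals, had 0.31 ± 0.18. Gad1, the synthesis enzyme found throughout the cell, had 0.20 ± 0.14, with a 95% interval from -0.08 to 0.47. Slc6a11, the GABA transporter of astrocytes, had 0.39 ± 0.23. Their adjusted p-values in the authors' deposited table run from 0.83 to 0.886, and each interval includes 0. The astrocyte markers beside Slc6a11 were positive in 4 of 6 cases with a median log2 fold change of 0.08. The 2 at an unadjusted p of 0.05 were negative, Aqp4 with -0.53 ± 0.23 and Gfap with -0.48 ± 0.24. The part of astrocyte RNA in the value of Slc6a11 was not tested.

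The wider set of GABA metabolism genes was also positive throughout. All 9 genes of the list of other synthesis, transport, breakdown and chloride genes had positive values, with a median of 0.32, 4 at an unadjusted p of 0.05 and 1 past the adjusted threshold. The called gene, Slc6a13, a GABA and taurine transporter found mainly in the leptomeninges, had 1.18 ± 0.31 (adjusted p = 0.0385 in the authors' deposited table). That call was lost when z was divided by its SD, which gave an adjusted p of 0.132 by Benjamini-Hochberg, and when every gene with a p entered the adjustment, which gave 0.063. Slc6a12, the betaine and GABA transporter, had 1.78 ± 0.59 with a low mean of 24.8 normalized counts. Abat, which breaks GABA down, had 0.45 ± 0.22. Glul, glutamine synthetase of astrocytes, had 0.32 ± 0.18. Markers of meningeal fibroblasts moved on the same side, positive in 8 of 8 genes with a median of 1.09 and 4 called. Of these calls 2 were left with adjustment over all genes with a p, and 1, Fmod, with z divided by its SD. Slc6a13 is itself in that marker list, and the part of meningeal RNA in these transporter values was not tested.

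The 9 GABA-A subunits went different ways, 6 positive and 3 negative, with a median log2 fold change of 0.01 and none past the threshold. Gabra3, an alpha subunit, had the smallest p of them, with 0.55 ± 0.17 on the log2 scale, a 1.46-fold difference. Its adjusted p was 0.146 in the authors' deposited table, and it was 0.354 with z divided by its SD by Benjamini-Hochberg adjustment. Gabra2, the alpha subunit concentrated at the axon initial segment of pyramidal cells, lay on the other side with -0.61 ± 0.29 (adjusted p = 0.64 in the authors' deposited table). Its SE was 1.80 times the median SE of genes with a similar mean count, between 0.8 and 1.2 times its own.

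Gabra5, which with gamma subunits forms extrasynaptic receptors of pyramidal cells, had -0.26 ± 0.18. Gabra4 and Gabrd, which pair in extrasynaptic receptors of dentate granule cells, had 0.01 ± 0.13 and 0.01 ± 0.21. The intervals of both include 0 and reach 0.27 for Gabra4 and 0.42 for Gabrd on the positive side. Of the beta subunits, which form part of the GABA binding site, Gabrb1 had -0.13 ± 0.10, the smallest SE among the members. Gabrb2 had the largest value of any member, 0.81, but also the largest SE, 0.62. Its SE was 3.47 times the median of 1533 genes of similar mean count and larger than 98.4% of them, so its interval runs from -0.41 to 2.03. The gamma subunits Gabrg1 and Gabrg3 had 0.24 ± 0.20 and 0.18 ± 0.16.

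Subunit genes lie in clusters, and neighbours in the clusters did not share a sign throughout. In GENCODE M21 the order on chromosome 5 is Gabrg1, Gabra2, Gabra4 and Gabrb1, with values of 0.24, -0.61, 0.01 and -0.13 on the log2 scale. On chromosome 7 Gabrg3 and Gabra5 follow each other, with 0.18 and -0.26. On the X chromosome the next subunit genes beside Gabra3 are Gabre and Gabrq, with 0.73 ± 0.77 for Gabre and 0.87 ± 0.67 for Gabrq, both imprecise. Gabra4 and Gabrb1 share exon bases on opposite strands, and as the counting's strand setting was not given in the sources used here, reads from that stretch may not have been told apart.

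Of the other receptor subunits and partners, 14 of 17 had an adjusted p, 8 positive and 6 negative, with a median of 0.05 and none called. The 2 at an unadjusted p of 0.05 were positive. Gabrr2, a subunit of the rho family best known from the retina, had 1.15 ± 0.36 (adjusted p = 0.164 in the authors' deposited table). Kctd8, an auxiliary protein of the GABA-B receptor, had 0.72 ± 0.29. Gabarap, a protein of receptor trafficking and autophagy, had -0.17 ± 0.13.

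The GABA-B receptor and the inhibitory scaffold showed small values, and the intervals of all 4 genes include 0. Gabbr1, which binds GABA, had 0.06 ± 0.12 on the log2 scale, with a 95% interval from -0.18 to 0.29. Gabbr2, which couples the receptor to G proteins, had 0.04 ± 0.14, with an interval from -0.23 to 0.32. Gphn, which encodes gephyrin, the protein that holds receptors under the inhibitory synapse, had 0.07 ± 0.17, with an interval from -0.27 to 0.41. Nlgn2 had 0.13 ± 0.13. Of 12 other genes of the inhibitory postsynapse 7 were positive and 5 negative, with a median of 0.03 and none called. Mdga1, which binds neuroligins and limits inhibitory synapses, had -0.50 ± 0.21 and was the 1 gene of that list at an unadjusted p of 0.05. Over the 33 members, 12 had a 95% interval that lay wholly within 0.5 of 0 on the log2 scale, these 4 genes among them.

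**Figure D3:**
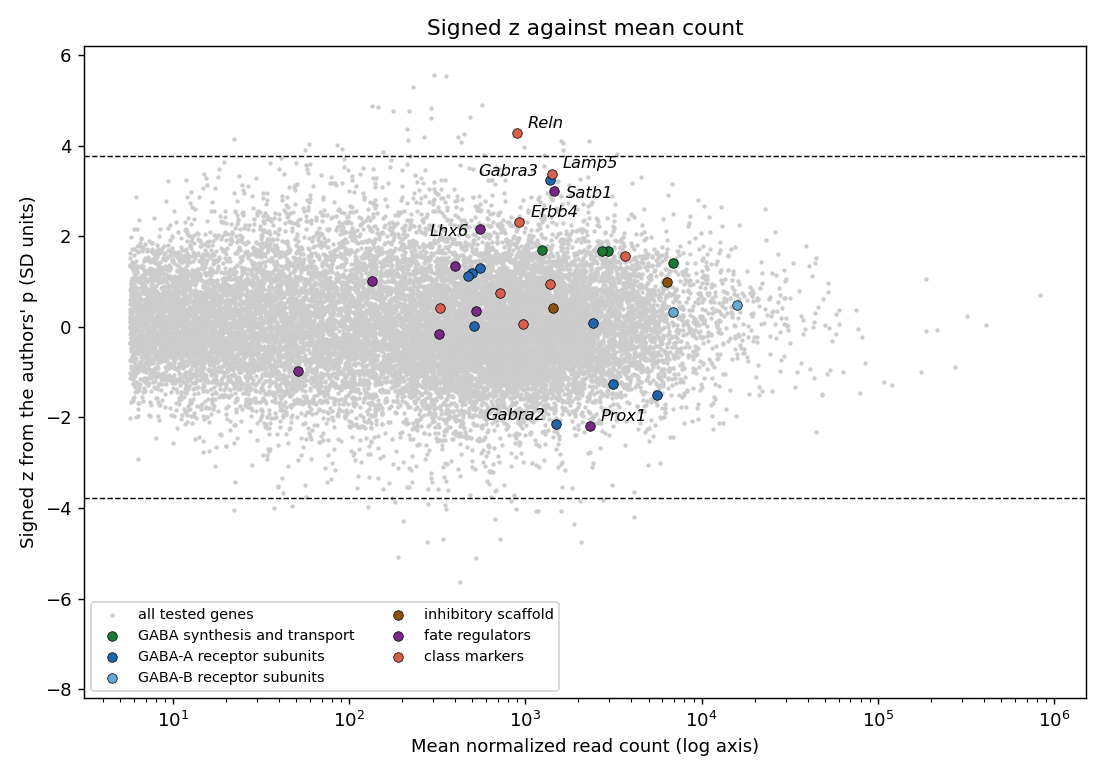
Signed z from the authors' p (y axis, SD units) against mean normalized read count (x axis, log scale) for all 18603 tested genes in grey and the 33 members in colour, with members at an unadjusted p under 0.05 named. Dashed lines mark the smallest z among called genes, 3.77 in size. Reln lies above the upper line, and Lamp5, Gabra3 and Satb1 lie next below it, Lamp5 with a z of 3.38.

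All 8 class markers had positive values, with a median log2 fold change of 0.20. After Reln came Lamp5, a membrane protein that marks neurogliaform interneurons, with 0.56 ± 0.17, a 1.47-fold difference. Its adjusted p was 0.111 in the authors' deposited table and ranged from 0.0949 to 0.29 under the other adjustments tried. Erbb4, the neuregulin receptor of many interneurons, had 0.40 ± 0.17 (adjusted p = 0.55 in the authors' deposited table). Cnr1, the cannabinoid receptor on terminals of cholecystokinin basket cells, had 0.25 ± 0.16. Nos1, the nitric oxide synthase of ivy and neurogliaform cells, had 0.16 ± 0.16, and Pvalb, which marks fast-spiking basket cells, had 0.14 ± 0.19. Ndnf, a secreted protein of neurogliaform and Cajal-Retzius cells, had 0.10 ± 0.25. Calb2, which encodes calretinin, had 0.02 ± 0.24.

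The 8 fate regulators were 5 positive and 3 negative, with a median of 0.17 and none called. Satb1, a chromatin organizer of parvalbumin and somatostatin cells that also occurs in cortical projection neurons, had 0.53 ± 0.18 (adjusted p = 0.217 in the authors' deposited table). Lhx6, the transcription factor of the medial eminence lineage, had 0.38 ± 0.17. Dlx2 and Dlx1, homeobox genes of all forebrain interneurons, had 0.26 ± 0.25 and 0.09 ± 0.25. Sox6, also made by oligodendrocyte precursors, had -0.04 ± 0.22. Maf, which is made by microglia as well as interneurons, had 0.31 ± 0.23, with an interval from -0.14 to 0.76. All 6 microglia markers were negative with a median of -0.36. The part of microglial RNA in the value of Maf was not tested. Sp8 had -0.49 ± 0.50 at the lowest mean of the members, 51.2 normalized counts.

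Prox1 marks interneurons of the caudal eminence, but in the hippocampus it is made mostly by dentate granule cells, and elsewhere by lymphatic endothelium. It had -0.29 ± 0.13 (adjusted p = 0.617 in the authors' deposited table). Of the other 6 dentate granule markers 4 were negative, Plk5 at -0.71 ± 0.27, Lct at -0.78 ± 0.33, C1ql2 at -0.34 ± 0.18 and Dsp at -0.19 ± 0.18. Tdo2 was positive with 0.20 ± 0.33, and so was Calb1, which gave no back-calculated value. The part of dentate granule cells in the value of Prox1 was not tested. Of the lymphatic markers, Ccl21a was listed at 0, and Lyve1, Flt4 and Pdpn had 0.87 ± 0.51, 0.19 ± 0.37 and -0.47 ± 0.19. Lyve1 and Flt4 had low means, 23.3 and 42.2 normalized counts, and Pdpn had 323. Which cells the RNA of these 3 genes came from was not tested.

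Genes of other interneuron classes and fates were also more often positive. Of 24 such genes 17 were positive, with a median log2 fold change of 0.13 and none called. At an unadjusted p of 0.05 were 9 of them, 7 positive and 2 negative. Id2, a regulator found in neurogliaform and other caudal classes, had 0.59 ± 0.18 (adjusted p = 0.138 in the authors' deposited table). Syt2, the synaptotagmin of parvalbumin cell terminals, had 0.71 ± 0.23, and Nxph1, a neurexin ligand of interneurons, had 0.71 ± 0.28. The potassium channel gene Kcnc2 of fast-spiking cells had 0.26 ± 0.12. Sncg, which marks a cholecystokinin class, was on the other side with -0.51 ± 0.24. Over the 4 lists of other genes of GABA signalling and interneurons together, 41 of 59 tested genes were positive (69.5%), beside 50.5% of all tested genes. At an unadjusted p of 0.05 were 16, 13 of them positive, where the background is 6.81%, or 3.92% on the positive side. Of the 59, 1 was called (1.69%), beside 0.328% of all tested genes.

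The interneuron neuropeptides, which are not members, had 5 positive and 3 negative values among 8 and none called. Vip had 0.49 ± 0.21 and Cck, which pyramidal cells also make, had -0.28 ± 0.14. Sst had 2.31 ± 1.18, a value too imprecise to place.

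**Figure D4:**
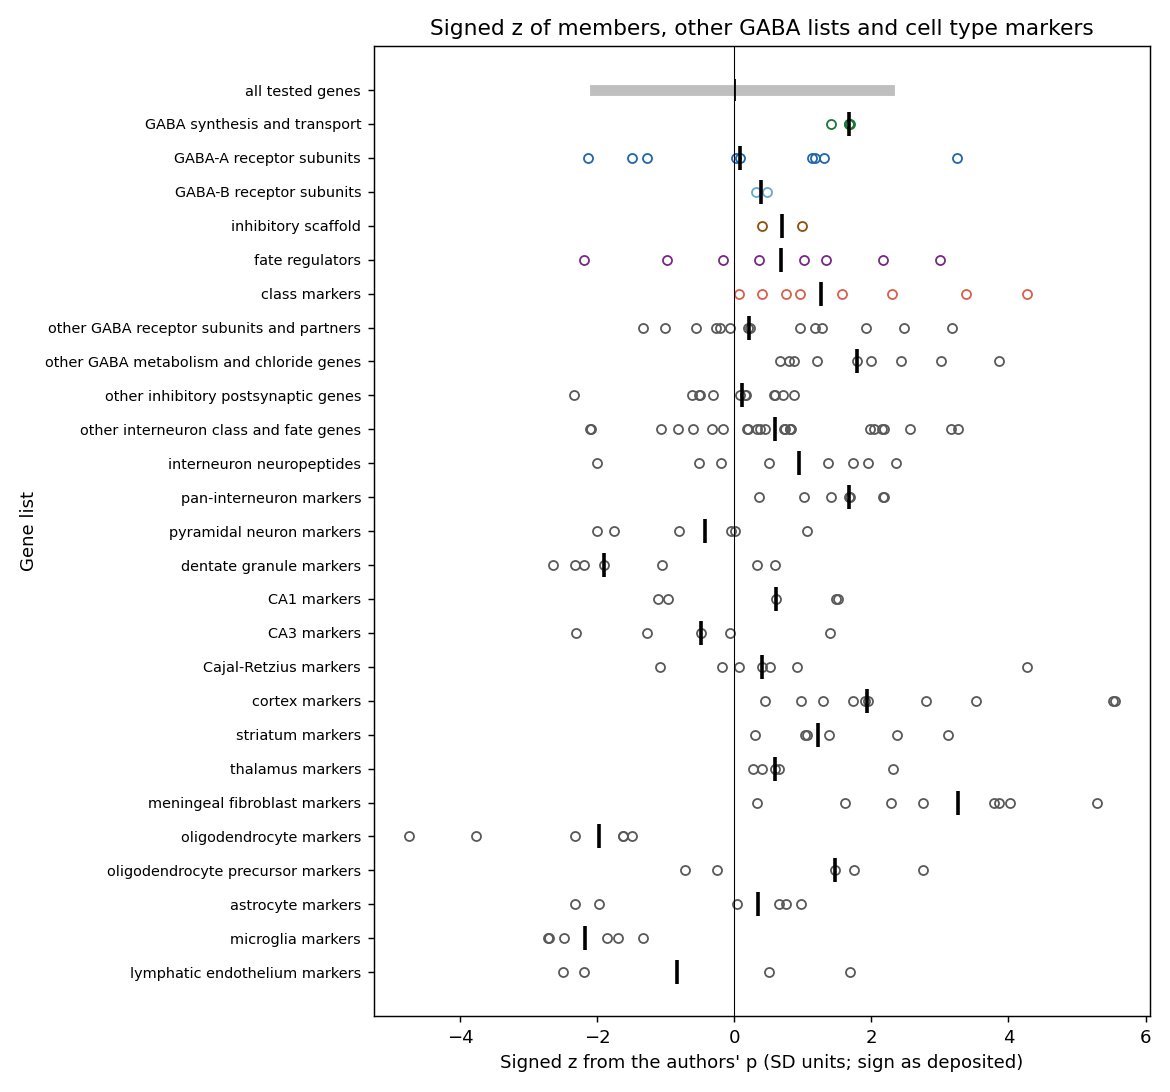
Signed z (x axis, SD units, sign as deposited) of every tested gene in each list (rows), with a black tick at the list's median; the grey bar spans the middle 95% of all tested genes. Synthesis genes, class markers and the pan-interneuron, cortex, striatum, thalamus and meningeal fibroblast markers lie to the right of 0, and oligodendrocyte and microglia markers to the left.

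Markers of neighbouring regions were positive beside the interneuron genes. All 7 pan-interneuron markers were positive with a median log2 fold change of 0.31, but most of them are members and add nothing independent. All 10 cortex markers were positive with a median of 0.50 and 2 called, Ccn2 with 1.55 ± 0.28 and Cplx3 with 1.43 ± 0.26. Whether the RNA of Ccn2 and Cplx3 came from cortex or from other cells was not tested. All 6 striatum markers, a region whose projection neurons use GABA, were positive with a median of 0.65 and none called. Of the 4 Cajal-Retzius markers that are no members 2 were positive, Trp73 with 0.26 ± 0.29 and Lhx5 with 0.40 ± 0.76. The 2 negative were Ebf3 with -0.63 ± 0.58 and Lhx1 with -0.14 ± 0.79. Lhx1 and Lhx5 had low means of 9.86 and 8.14 normalized counts, so their values are imprecise. General pyramidal neuron markers went the other way in 4 of 6 cases, with Neurod6 at -0.39 ± 0.20 and Neurod2 at -0.39 ± 0.22. Markers of dentate gyrus, CA1 and CA3 were all detected, each with a mean of at least 90.9 normalized counts. The part of cortical or striatal RNA in the values of Reln, Lamp5, Satb1, Gabra3 or the synthesis genes was not tested, and levels of these markers in single libraries were not analysed here.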

How the data were processed

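Libraries of hippocampal RNA were made with a stranded mRNA kit and sequenced as 150 bp paired-end reads, then processed with fastp 0.20.0, HISAT2 2.1.0 and featureCounts 2.0.1, per the labels' protocols. The submitters' processing notes name DESeq2 1.28.0. Genome build, annotation and strand setting were not given in the sources used here. Both sheets of the deposited workbook have the same values. Its mean is a signal, the mean over libraries of counts divided by size factors by the authors, and these means sum to 25011655 counts, against which CPM was computed. The deposited log2 fold changes are shrunken, and the p-values and adjusted p-values are the authors' own. The adjusted p is blank for genes of low mean.

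Groups follow the treatment label. A signed z was computed from the p-value and the sign of the fold change. Unshrunken log2 fold changes were back-calculated by assuming a normal likelihood and a Cauchy prior of scale 0.0357, taken from genes of lowest count, and the calculation was tested on simulated data. Of 18603 tested genes, 18445 gave a value. At this scale the errors implied for the members differed from the deposited errors by a median of 0.0213%, compared with 24.3% and 24.6% at a scale 20% smaller and 25% larger. Intervals are 95% intervals from the normal distribution.

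Members and lists were chosen with earlier results of these data known. Members at an unadjusted p of 0.05 are given in full, other members at least by value, and up to 5 genes per list by smallest p, with further list genes named for their role after their values were seen. Some genes that this rule selects are left out here. In GENCODE M21, 11 members share exon bases with a gene on the other strand and 2 with a gene on the same strand, and their counts are less certain. Gene IDs were matched to names for 55144 of 55471 genes. Versions were Python 3.11.15, pandas 2.3.3, numpy 2.4.6, matplotlib 3.10.9 and scipy 1.17.1.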

Additional observations from a re-analysis of the deposited data

How the results depend on the processing

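Reln remained the called member with adjustment over all genes with a p (45 of all genes called) and over genes whose mean reached 1 CPM (65 called). At an adjusted p of 0.1 (116 called) no other member joined it. That looser threshold could not remove Reln, whose adjusted p was 0.0159 in the authors' deposited table. Nor could a deposited log2 fold change of at least 0.5, since its deposited value was 0.70. With z divided by its SD, 0 members and 19 of all tested genes passed the Benjamini-Hochberg threshold. On that scale 8 members were at an unadjusted p of 0.05, as before, beside 5.13% of all tested genes, down from 6.81%. The other genes of GABA signalling and interneurons at that p fell from 16 to 11, a setting added for them after seeing the data. At an unadjusted p of 0.01 there were 4 members, Reln, Lamp5, Gabra3 and Satb1, beside 2.34% of all tested genes, and 5 of the other genes of GABA signalling and interneurons, an alternative chosen after seeing the data. The median log2 fold change of the members was 0.10 with a prior scale 20% smaller and 0.25 with a scale 25% larger, so sizes of back-calculated values depend on that scale and their signs and z do not. To pass the threshold, a member needed a log2 fold change of 0.39 to 2.35 in size, depending on its SE (median 0.67), so smaller differences were not detectable here. Leaving out each library and count models were not run, since both need values per library. No paired analysis was possible because the labels used here name no pairs of samples and the columns hold no single samples.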
